A study of Glycine max with 12 samples.

Results

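Iron superoxide dismutase (SODB) and dehydroascorbate reductase (DHAR3) of soybean leaves were represented by 3 of the 5760 cDNA spots on the array. All spots to which the array's gene table gives the symbol SODB or DHAR3 were taken, which were 1 SODB clone (GenBank AI959792) and 2 DHAR3 clones (AW186212 and AW509423). The table gives a symbol for 253 spots. The 2 genes were selected on their log2 ratios of treated over control under the 3 treatments, which were known beforehand, so those ratios are given as a description and were not used as a test.

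The study asked which leaf transcripts respond to stress in the endoplasmic reticulum (ER), to osmotic stress, or to both. Shoots cut from 3-week-old plants of the cultivar Dare stood in tunicamycin (TUN, 10 µg/ml for 24 h, against DMSO), L-azetidine-2-carboxylic acid (AZC, 50 mM for 16 h, against water) or polyethylene glycol (PEG, 10% w/v for 16 h, against water). Tunicamycin stops the N-linked glycosylation of ER proteins, AZC is a proline analog that causes newly made proteins to misfold, and PEG draws water out of cells. Leaf RNA from treated and control shoots was labelled with Cy3 or Cy5 and hybridized together, for 2 biological replicates of each treatment and both dye orientations of each replicate, which makes 4 hybridizations per treatment and 12 in all. All shoots, controls included, had been cut from their roots and stood in liquid, and TUN differed from AZC and PEG in its duration as well as its solvent. The sources used here do not say whether AZC and PEG shared water-treated shoots, nor how many plants made up a replicate.

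Iron superoxide dismutase turns superoxide into hydrogen peroxide and oxygen, and in plants it works mainly in the plastids, where superoxide forms when photosynthetic electron transport passes electrons to oxygen. Dehydroascorbate reductase returns oxidized ascorbate to ascorbate with electrons from glutathione, so that ascorbate can again be spent in removing hydrogen peroxide. Both enzymes thus stand on 1 route, in which superoxide dismutase makes the peroxide and the ascorbate and glutathione cycle clears it. Soybean carries further genes of both kinds. The RefSeq gene table names SODB2 beside SODB, and DHAR1, DHAR2 and DHAR4 beside DHAR3, and a long cDNA spot may bind transcripts of a close relative. The signal of each spot is therefore assigned to its gene with that uncertainty.

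The median signal over local background across spots ranged between 3.47 and 13.4 for Cy3 and between 3.15 and 11.2 for Cy5. A single array stood apart. Where PEG-treated RNA of replicate 2 carried Cy5, 44.7% of spots lay above background in that dye, and this hybridization was quantified by another method than the other 11. The scanner files of PEG replicate 1 followed the deposited ratios of each other's hybridization (r of at least 0.977 in size) and not of their own (at most 0.499), so they were used exchanged, a pairing chosen after these correlations had been seen. All 4 spots of the leaf marker list lay above background in the control channel of all 12 hybridizations, and so did 5 of 7 spots of the seed marker list. Of all spots, 82.7% lay above background in the control channel of the PEG array that stood apart, and at least 96.9% in every other. The counts therefore cannot tell leaf from seed signal. Median control signals over the channel median were 0.578 to 25.1 for the leaf spots and 0.611 to 7.13 for the seed spots. The 4 leaf spots were LOC547819 (a chlorophyll a/b-binding protein), PSAD (a photosystem I subunit) and 2 clones of LOC732655 (chloroplast glyceraldehyde-3-phosphate dehydrogenase A).

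SODB gave a net intensity (mean foreground minus local background, in arbitrary scanner units) of 699 to 7173 in the control channels, at 4.74 to 39.8 times the local background. No pixel of the 3 spots was saturated in any hybridization, and every control channel of the 3 spots lay above background. In the treated channel, DHAR3 clones AW186212 and AW509423 fell below the background limit on that weak array of PEG replicate 2. Clone AW509423 carried a mark of the scanner software in the other orientation of PEG replicate 2, so its value there was left out and PEG is described for this clone by replicate 1.

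Under AZC, SODB was lower than in water in 4 of 4 hybridizations. Its log2 ratio of treated over control was -1.76 (treated RNA in Cy5) and -1.83 (Cy3) in replicate 1, and -0.98 (Cy5) and -0.77 (Cy3) in replicate 2. The 2 orientations of a replicate lay close together, whereas the replicates did not overlap, with replicate 1 the lower. Averaged over the dye swap, SODB fell by 1.80 and by 0.87, which gives -1.34 ± 0.65 (SD, n = 2) or 2.53-fold lower, with a 95% interval from the limma fit across all clones of -1.82 to -0.85. Of the 5023 clones tested under AZC, 1.99% had a lower ratio than SODB. A ratio of this kind cannot tell fewer cells of a type from less RNA per cell.

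Both replicates reached a like level of SODB in the AZC channel, and their control channels differed. Set over the median net intensity of all spots in the same channel, before loess normalization, SODB stood at 1.27 (Cy5) and 1.33 (Cy3) under AZC in replicate 1, against 3.27 and 3.06 in its water controls. In replicate 2 it stood at 1.10 and 1.37 under AZC, against 1.79 and 1.75 in water. The larger fall in replicate 1 thus went with a higher SODB signal in the control RNA of that replicate. That signal is the denominator of the ratio, so at a like treated level the link is built in.

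Under PEG, SODB was again lower than in water in 4 of 4 hybridizations, at -0.52 (Cy5) and -0.72 (Cy3) in replicate 1 and -1.08 (Cy5) and -0.69 (Cy3) in replicate 2. Here the replicates overlapped. The mean was -0.75 ± 0.19 (SD, n = 2), 1.69-fold lower, with a 95% interval of -1.24 to -0.27. Relative to its channel, SODB stood at 2.01 to 4.06 in the PEG channels, against 2.87 to 4.24 in the water channels. The lowest ratio, -1.08, came from the array with few spots above background, and without that array the mean was -0.66. With the files of PEG replicate 1 taken as listed, the mean was -0.13.

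Under TUN, the replicates of SODB parted. The log2 ratio was -0.07 (Cy5) and 0.17 (Cy3) in replicate 1 and -0.81 (Cy5) and -0.40 (Cy3) in replicate 2. Replicate 1 lay around 0, and replicate 2 was lower than DMSO in both orientations. The mean of -0.28 ± 0.46 (SD, n = 2) had a 95% interval of -0.76 to 0.21, which includes 0. The control channels differed here too, at 3.15 and 3.28 times the channel median in the DMSO controls of replicate 1 and 2.23 and 2.04 in those of replicate 2. Unlike under AZC, the replicate with the higher control signal had the ratios nearer 0.

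**Figure D1:**
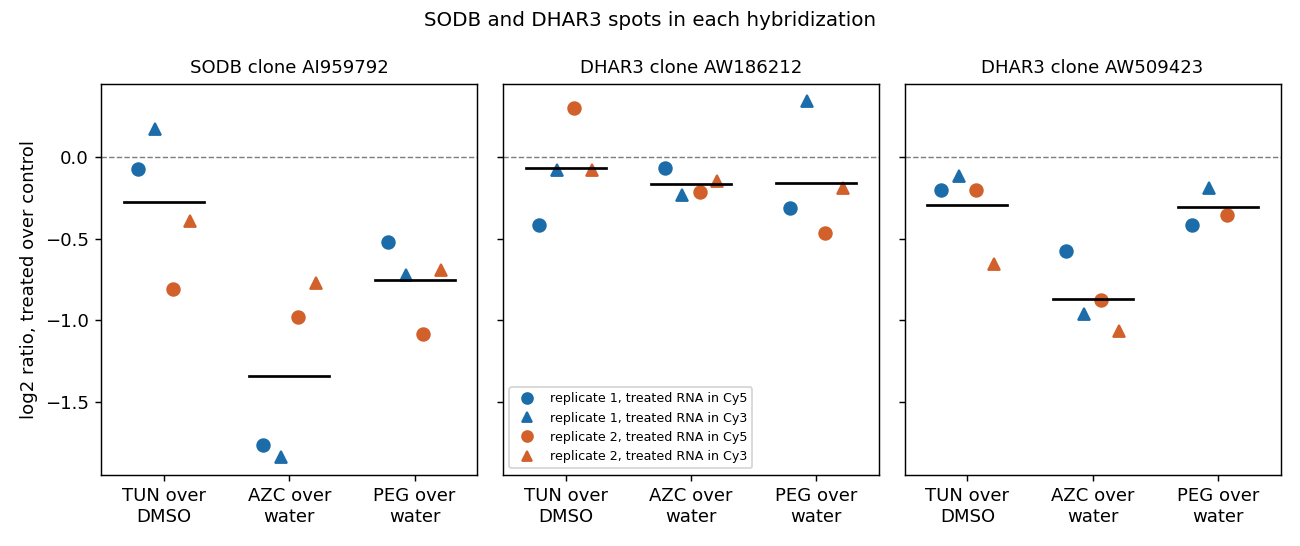
Log2 ratio of treated over control (vertical axis) of the SODB clone and both DHAR3 clones under TUN, AZC and PEG. Each point is 1 hybridization, with colour for the biological replicate and shape for the dye of the treated RNA, and the black line is the mean of the dye-averaged replicates (PEG replicate 1 alone for AW509423). SODB lies below 0 in all 4 hybridizations of AZC and of PEG, and AW186212 stays near 0 under all 3 treatments.

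The plot of channel levels shows the treated and control signals behind these ratios, hybridization by hybridization.

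**Figure D2:**
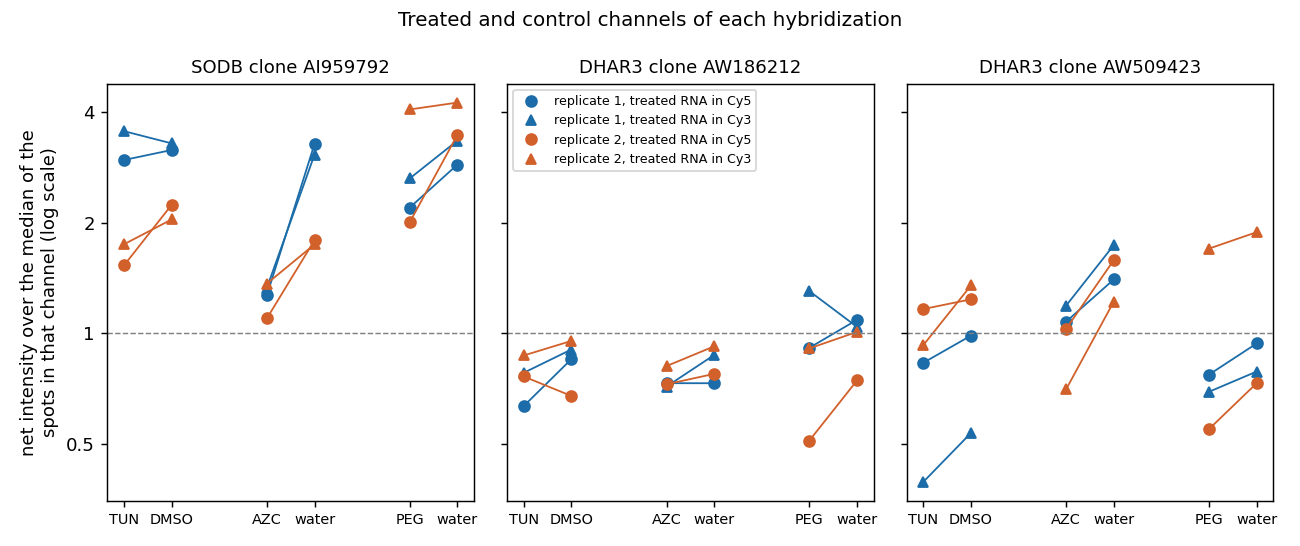
Net intensity of each spot divided by the median net intensity of the spots in the same channel (vertical axis, log scale), with the treated channel left of its control and a line joining both channels of 1 hybridization. Colour marks the biological replicate and shape the dye of the treated RNA. For SODB under AZC the treated channels lie between 1.10 and 1.37, and the water channels of replicate 1 lie above those of replicate 2. The marked spot of AW509423 in PEG replicate 2 is drawn here (1.70 in the PEG channel and 1.88 in water), although it has no ratio.

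The 2 DHAR3 clones differed in what they showed. Clone AW186212 stayed near its control under every treatment. Its log2 ratio under AZC was -0.07 (Cy5) and -0.23 (Cy3) in replicate 1 and -0.21 (Cy5) and -0.15 (Cy3) in replicate 2, all below 0 and all small. Under TUN it was -0.41 and -0.08 in replicate 1 and 0.30 and -0.08 in replicate 2, and under PEG -0.31 and 0.34 in replicate 1 and -0.47 and -0.19 in replicate 2, each pair given as Cy5 and then Cy3. Values of both signs occurred under TUN and PEG. The means were -0.07 ± 0.25 for TUN, -0.17 ± 0.02 for AZC and -0.16 ± 0.24 for PEG (SD, n = 2 each), with 95% intervals of -0.44 to 0.30, -0.54 to 0.21 and -0.53 to 0.21. Each interval includes 0 and leaves room for a fall of about the size of its lower bound.

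Clone AW509423 was lower than water in 4 of 4 AZC hybridizations, at -0.58 (Cy5) and -0.96 (Cy3) in replicate 1 and -0.88 (Cy5) and -1.06 (Cy3) in replicate 2. The replicates overlapped. The mean was -0.87 ± 0.14 (SD, n = 2), 1.83-fold lower, with a 95% interval of -1.23 to -0.51, and 3.50% of the clones tested had a lower ratio. Over the channel median, this spot stood at 0.71 to 1.19 under AZC, against 1.22 to 1.74 in water. Under TUN its log2 ratio was -0.20 (Cy5) and -0.12 (Cy3) in replicate 1 and -0.20 (Cy5) and -0.66 (Cy3) in replicate 2, all below 0, with a mean of -0.30 ± 0.19 (SD, n = 2) and a 95% interval of -0.65 to 0.06. Under PEG, replicate 1 gave -0.42 (Cy5) and -0.19 (Cy3), and the 1 usable hybridization of replicate 2, whose treated channel was not above background, gave -0.36.

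Both DHAR3 clones lay on the same arrays, so they could be compared within each hybridization. The log2 ratio of AW509423 minus that of AW186212 was below 0 in 9 of 11 hybridizations. It was -0.51, -0.73, -0.66 and -0.92 in the 4 AZC hybridizations, with AW509423 the lower clone in both replicates and both orientations. Under TUN the difference was 0.21 and -0.04 in replicate 1 and -0.51 and -0.58 in replicate 2. Under PEG it was -0.10 and -0.53 in replicate 1 and 0.11 in the usable hybridization of replicate 2. The gene table pairs both clones with 1 gene, and which part of the transcript or which relative each clone carries is not given in the sources used here.

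**Figure D3:**
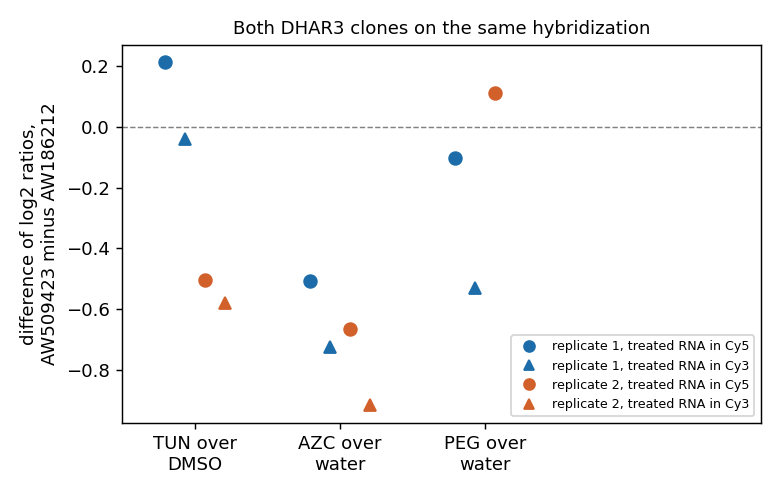
Difference between the log2 ratios of the 2 DHAR3 clones, AW509423 minus AW186212 (vertical axis), in the 11 hybridizations where both had a value. Colour marks the biological replicate and shape the dye of the treated RNA. The 4 AZC points lie between -0.92 and -0.51, whereas TUN and PEG have points on both sides of 0.

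In the same fit, a clone was called lower or higher at a limma p under 0.05 after Benjamini-Hochberg adjustment over all clones tested. Under AZC this called 5.12% of clones lower and 3.98% higher. SODB (adjusted p = 0.00342) and DHAR3 AW509423 (adjusted p = 0.00916) were among the lower ones, and AW186212 was not (adjusted p = 0.662). Under TUN, 2.75% were called lower and 4.51% higher, with 0 of the 3 spots among them (adjusted p of 0.405 to 0.903). Under PEG, 7.02% were called lower and 4.58% higher, with neither of the 2 spots that could be tested among them. SODB lay just outside the threshold there (adjusted p = 0.054). These calls rest on the ratios with which the genes were selected and carry no weight as a test. The call of SODB under AZC was lost without AZC replicate 1 (log2 ratio -0.87, adjusted p = 0.144 in limma), and that of AW509423 without either AZC replicate (adjusted p = 0.114 without replicate 1 and 0.194 without replicate 2). With the PEG replicate 1 files as listed, which widens the spread shared by the 3 treatments, both calls were lost with the ratios unchanged (adjusted p = 0.283 for SODB and 0.131 for AW509423, limma).

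**Figure D4:**
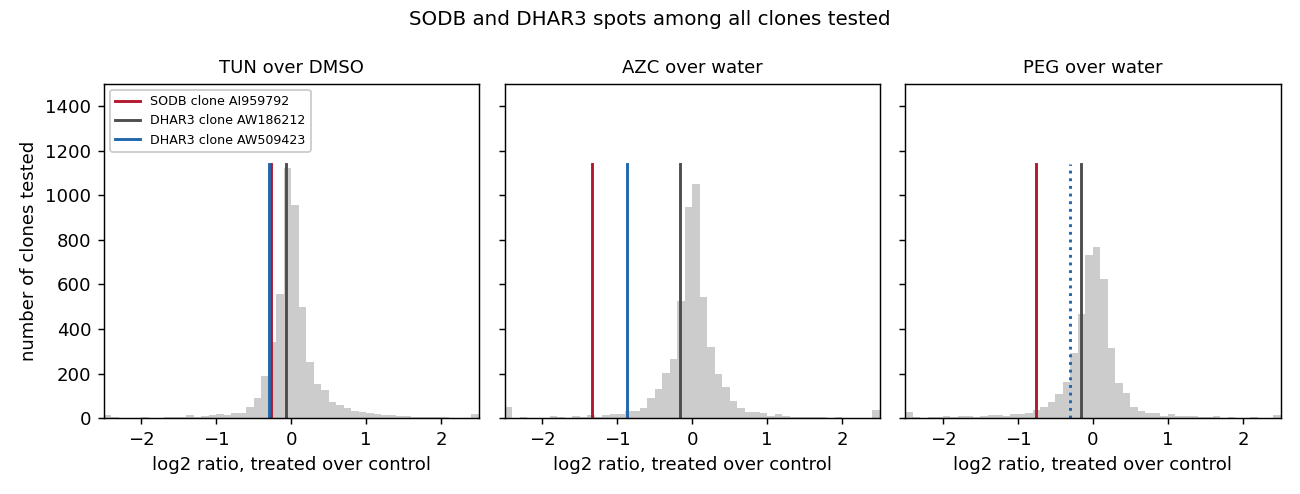
Number of clones tested (vertical axis) by log2 ratio of treated over control (horizontal axis, bins of 0.1, values beyond the axis placed in the end bins), for TUN, AZC and PEG. Vertical lines mark the SODB clone and both DHAR3 clones, dotted where the clone was not tested. SODB and AW509423 lie in the lower tail under AZC, and AW186212 lies within the main body of clones in each panel.

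The differences between treatments are built from the ratios on which the genes were selected, so their intervals describe the spread and carry no weight as a test. The AZC ratio of SODB was lower than the TUN ratio by a log2 difference of -1.06 (95% interval -1.75 to -0.37, limma contrast), and that of AW509423 by -0.57 (-1.08 to -0.07). With 1 replicate left out, these differences ran from -1.52 to -0.60 for SODB (-0.60 without AZC replicate 1) and from -0.71 to -0.44 for AW509423. Between PEG and AZC the difference was 0.58 for SODB (-0.10 to 1.27) and 0.57 for AW509423 (-0.05 to 1.19), and both intervals include 0. The SODB difference was 0.12 without AZC replicate 1, 1.05 without AZC replicate 2 and 1.20 with the PEG replicate 1 files as listed. The SODB replicates lay so far apart that shifts of this size still fell within their spread. Between PEG and TUN the difference was -0.48 for SODB (-1.16 to 0.21), and between -0.80 and -0.15 with 1 replicate left out. For AW186212 the 3 differences lay between -0.10 and 0.01, with intervals within -0.62 to 0.53. In order of the mean ratio, SODB was lowest under AZC, then PEG, then TUN, and the intervals for the neighbours AZC and PEG, and PEG and TUN, include 0. AW509423 was lowest under AZC, while PEG (-0.30, replicate 1) and TUN (-0.30) differed by -0.01 (-0.63 to 0.61).

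Dye orientation moved the 3 spots less than the contrast of AZC with water moved SODB or AW509423. For SODB, the ratio with the treated RNA in Cy5 minus that with it in Cy3 was between -0.41 and 0.20 over the 6 replicates. For AW186212 it was between -0.65 and 0.38, which is as wide as the ratios of that clone themselves, and for AW509423 between -0.23 and 0.45 over 5 replicates. Across all clones, the standard deviation of this dye difference was 0.43 to 0.59 for TUN, 0.45 and 0.47 for AZC, and 0.58 and 0.81 for PEG. In the deposited normalized table, made from the same scans, SODB under AZC read -1.56 and -1.63 in replicate 1 and -0.71 and -0.66 in replicate 2, and AW509423 read -0.44, -0.82, -0.61 and -0.77.

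SODB and the 2 DHAR3 clones followed each other only in part. Over the dye-averaged replicate values of the 3 treatments, SODB and AW509423 had a Pearson correlation of 0.72 over 5 values, SODB and AW186212 of 0.03 over 6, and the 2 DHAR3 clones of 0.20 over 5. These values share arrays and 3 treatments and are given without a test. Among the 158 spots with another single gene symbol and all 6 values, the spot most like SODB by root-mean-square difference was LOC547884 (AW102551, 0.386), followed by 2 clones of the fatty acid desaturase gene FAD2-3 (AW100780, 0.448, and AW471558, 0.463) and by MIPS (AI941146, 0.485), an enzyme of inositol synthesis. MIPS had values of -1.65 and -1.18 under AZC, -1.20 and -1.44 under PEG, and -0.67 and -0.97 under TUN, with the highest correlation with SODB of these 4 (0.93 over 6 values).

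For DHAR3 AW509423 the most alike was MYBZ2 (AW185997), a MYB transcription factor, with a root-mean-square difference of 0.120 and a correlation of 0.94 over 5 values. It read -0.52 and -0.95 under AZC, -0.34 and -0.35 under PEG, and -0.22 and -0.36 under TUN. The next were CYP98A2 (0.307), a cytochrome P450 of phenylpropanoid synthesis, BZIP21 (0.332), a bZIP transcription factor, and CG-1 (AI941229, 0.369), a seed storage protein. For DHAR3 AW186212, which hardly moved, the most alike were LOC547892 (0.132), LOX1.1 (AI748749, 0.153), a lipoxygenase, GRP (0.159) and HPPD (0.160), an enzyme of tyrosine breakdown.

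Among spots with a gene symbol, the other clones found for the list of superoxide, ascorbate and glutathione metabolism had no common direction under AZC. Of 10 tested there, 5 lay below 0. This list held 14 further spots, which encode glutathione S-transferases, glutathione reductase, homoglutathione synthetase, ferritins and metallothioneins. No spot among them encodes another superoxide dismutase or an enzyme that acts on ascorbate. Spots without a symbol were not searched, and the study names further clones of this kind outside the list, such as a glutathione peroxidase homolog. Glutathione reductase, which serves the same cycle as DHAR3, had 1 replicate under AZC and was not tested there. Of 10 tested under AZC, 1 was called higher and 1 lower, with a median log2 ratio of 0.09 against 0.01 over all clones tested. Of 11 tested under TUN, 2 were called higher and 0 lower (median 0.01, against -0.01 over all clones), and of 12 tested under PEG, 4 higher and 1 lower (median 0.11, against 0.01). Over all clones tested, 3.98% were called higher and 5.12% lower under AZC, and 4.51% and 2.75% under TUN. Under PEG the shares were 4.58% and 7.02%. Without the PEG hybridization that had few spots above background, the PEG counts were again 4 and 1, and without PEG replicate 2 they were 1 and 0.

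Within that list, glutathione S-transferases join glutathione to reactive compounds, and ferritins hold iron in a safe form. The transferase GSTU41 (AW397276) was called higher under all 3 treatments, with log2 ratios of 1.502 and 1.55 in the TUN replicates, 0.50 and 0.84 in the AZC replicates, and 1.27 and 1.20 in the PEG replicates (limma adjusted p of 0.000127, 0.00835 and 0.000208). Under AZC and PEG its ratio was above 0 in both replicates, where that of SODB was below 0. The study's own array analysis also placed this clone among the genes raised by all 3 treatments. By real-time RT-PCR, the study found no induction of its glutathione S-transferase mRNAs by tunicamycin. That assay used leaves of another cultivar, cut off and fed through the petiole. The GSTU41 clone was among those it measured. The transferase GSTF5 (AW507753) was the clone called lower under AZC, at -0.68 and -0.76 (mean -0.72, adjusted p = 0.01, limma). Under PEG, the ferritins LOC547698 (AW186337) and H-1 (AW279016) rose by 1.79 and 1.30 and the transferase GSTa (AW459775) by 1.35, while the transferase LOC547576 (AW471665) fell by 0.41 (limma adjusted p of 0.00139, 0.0057, 0.00363 and 0.0123). H-1 AW279016 also rose under TUN, by 1.32 (adjusted p = 0.00771, limma). The other H-1 clone, AW101901, read -0.18 under TUN and -0.06 under PEG and was not called. The calls of GSTU41 and GSTF5 under AZC were lost without either AZC replicate. Those of LOC547698, H-1, GSTa and LOC547576 under PEG were lost without PEG replicate 2, and that of H-1 under TUN without TUN replicate 1 or without the weak PEG array. With the PEG replicate 1 files as listed, limma kept no call in this list.

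In the reported setting, the chloroplast clones other than SODB that were called under a treatment were all lower there. Of 8 tested under AZC, 3 were called lower and 0 higher (median log2 ratio -0.34), of 7 under PEG, 4 and 0 (median -1.39), and of 6 under TUN, 2 and 0 (median -0.40). Over all clones tested, 5.12% were called lower under AZC, 7.02% under PEG and 2.75% under TUN, with medians of 0.01, 0.01 and -0.01. The chlorophyll a/b-binding protein clone LOC547819 (AW472492), chosen here after its values had been seen, read -4.67 and -6.02 under AZC, -5.14 and -5.34 under PEG, and -1.97 and -5.20 under TUN. The SODB ratio was nearer 0 than that of this clone in each replicate. Both read lower in replicate 2 than in replicate 1 under TUN and PEG, whereas under AZC SODB read lower in replicate 1 and LOC547819 in replicate 2. PSAD and HEMB, an enzyme of tetrapyrrole synthesis, stayed uncalled in that setting. PSAD read 0.25 under AZC, from 1 replicate, and 0.38 under PEG. The 2 clones of glutamine synthetase GS-2 (AI736144 and AW186035) read -1.22 and -0.02 under AZC. Those of LOC732655 (AW567734 and AW508802) read -4.82 and -0.01 under AZC, and -2.15 and -1.91 under PEG. With the deposited ratios, or with all 12 hybridizations, a dye term and a random block, 1 chloroplast clone was called higher under PEG. The leaf marker spots all belong to the chloroplast list, so their calls are already in the chloroplast counts and are no second set. Of these spots, 1 of 3 tested was called lower under TUN, 2 of 3 under AZC and 3 of 4 under PEG. Of the seed marker spots, 0 of 5 were called lower under TUN, 1 of 6 under AZC and 1 of 7 under PEG. The part of either marker set in the SODB and DHAR3 ratios was not tested. With the PEG replicate 1 files as listed, limma called 0 clones of the chloroplast list under each treatment.

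Across the processing alternatives, SODB under AZC ranged from -1.80 to -0.87 and AW509423 under AZC from -1.05 to -0.56, with no value above 0.

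**Figure D5:**
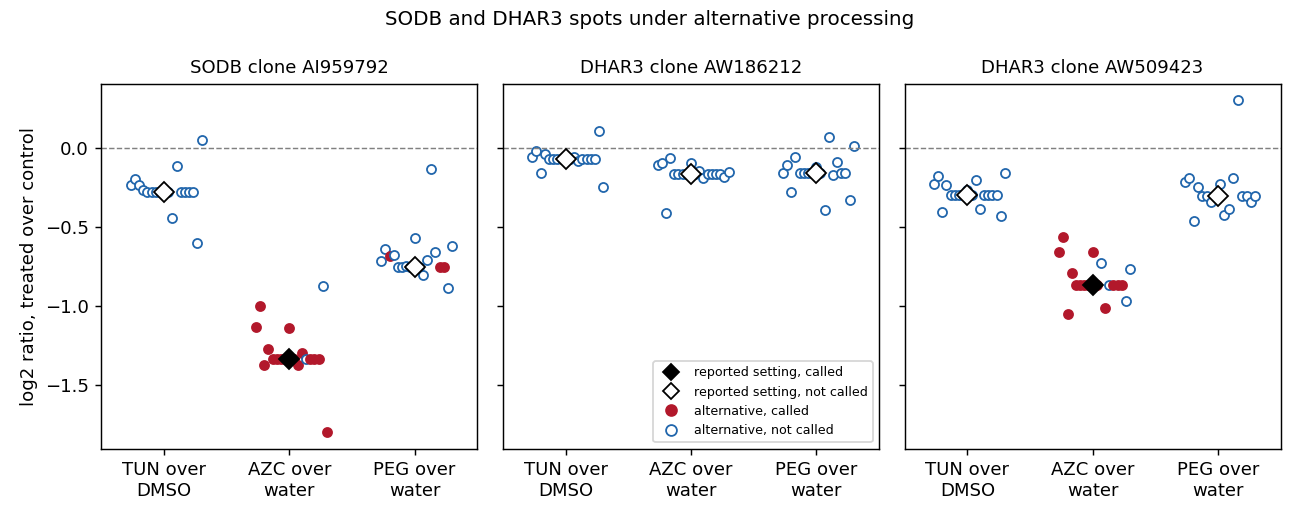
Log2 ratio of treated over control (vertical axis) of each spot under each treatment, with a diamond for the reported setting and a circle for each alternative way of processing or set of samples. Filled symbols mark an adjusted p under 0.05 in limma. SODB and AW509423 stay below 0 under AZC throughout, and the single AW509423 point above 0 under PEG (0.30) is that with the PEG replicate 1 files as listed.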

How the data were processed

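Each hybridization came with the scanner software's table of 5760 spots, in which the authors deposited for each dye the mean foreground intensity with the background around the spot and its standard deviation, the percent of saturated pixels, and a mark whose meaning the files do not give. The authors also deposited background-subtracted, LOWESS-normalized log2 ratios, whose log2 scale and treated-over-control direction were read from their fit to the scans (slopes of 0.72 to 0.92 on the ratios used here and 1.08 to 1.22 on ratios without background correction), with medians of -0.05 to 0.05. Values under marks 1 and 4 were left out.

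Background was corrected by normexp (offset 50, which draws ratios of dim spots toward 0), global loess was applied per array, and a replicate took the mean of its dye-swap pair, tested only if both orientations had a value. A spot was tested when above background plus 2 standard deviations in 3 of 4 hybridizations of 1 of 6 RNA groups, which all 5760 spots met. The 6 values per clone were fitted with limma 3.58.1 (R 4.3.3), using an intensity trend, 1 coefficient per treatment and Benjamini-Hochberg adjustment, a procedure tested on simulated data. Intervals are 95%. The labels call the replicates biological, and 2 per treatment limit the precision.

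The members, lists and alternatives were chosen with earlier results of these data known. Named genes were the members, the 4 most alike spots of each, and the called clones of the superoxide, ascorbate and glutathione list. Marker lists were leaf and seed proteins. Gene symbols came from the platform's table, and 249 of 253 were found by gene ID in RefSeq. Doses and times came from the study's methods. Sequences were not used here.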

Additional observations from a re-analysis of the deposited data

Results flagged for a closer look

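Among the 4 TUN hybridizations of DHAR3 AW509423, that of replicate 2 with the treated RNA in Cy3 (-0.66) lay far from the other three, which were between -0.20 and -0.12. A gap of this relative size arises by chance in about 1 in 20 groups of 4 independent values, and 8 groups of 4 hybridizations were examined. These hybridizations are dye pairs of 2 replicates and not independent, so that rate is only a rough guide here. The cause was not tested.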

How the results depend on the processing

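Of 161 recomputed ratios of the 3 spots, 147 kept their sign and their side of the limma threshold. Some had no room to differ. Dropping or tightening the dim-spot filter changed no value, and settings altering only PEG hybridizations could not move TUN or AZC ratios. AW509423 under PEG was not tested in the reported setting, and where it stayed untested only its sign counted. The counts of differences and called clones below include such settings. SODB under PEG passed the threshold with median centring (-0.68), with each treatment fitted by itself and with all 12 hybridizations, a dye term and the replicate as a random block (both -0.75, adjusted p = 0.00184 and 0.00385). In the other 15 of 18 alternatives it did not. Among those were the fit without the weak PEG hybridization (-0.66, limma adjusted p = 0.138), print-tip loess (-0.68, limma adjusted p = 0.105) and no intensity trend (-0.75, limma adjusted p = 0.153). SODB under AZC (-1.34) and AW509423 under AZC (-0.87) lost their calls with the PEG replicate 1 files as listed, and AW509423 also with only the treated RNA in Cy5 (-0.73). Leaving out 1 replicate moved SODB between -1.80 and -0.87 under AZC and between -0.60 and 0.049 under TUN, AW509423 between -0.97 and -0.77 under AZC, and AW186212 between -0.25 and 0.11 under TUN and between -0.33 and 0.013 under PEG. AW186212 under PEG was 0.073 with only the treated RNA in Cy3, and AW509423 under PEG was 0.30 with the files as listed. The lone replicate was then assumed to vary like the others. Of 178 recomputed treatment differences, 169 moved less than the replicate spread, a limit too wide for SODB. Among 162 recomputed ratios of the called glutathione and ferritin clones, 28 lost the call and 2 changed sign (GSTU41 under PEG, -0.035 with the files as listed, and LOC547576 under PEG, 0.067 with only the treated RNA in Cy5).

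The number of clones called was 356 for TUN (221 higher, 135 lower), 457 for AZC and 504 for PEG. With the PEG files as listed limma called 19 TUN clones, 65 AZC clones and 0 PEG clones (before adjustment, a p under 0.05 was reached by 51 that were higher and 34 that were lower), and without the weak PEG hybridization there were 210 for TUN and 271 for AZC. It was 233 for TUN with only the treated RNA in Cy3, 193 for TUN fitted by itself, 245 for AZC with only the treated RNA in Cy5, and 1328 for AZC with median centring. The methods' t-test over the 4 hybridizations gave 708 for TUN, 965 for AZC and 598 for PEG before adjustment, and 1, 142 and 6 after Benjamini-Hochberg adjustment. Leaving out 1 replicate gave 219 to 455 for TUN, 194 to 539 for AZC and 172 to 578 for PEG. Same-numbered replicates deviated together little or not at all (r of 0.14, -0.06 and -0.07 between treatments). These correlations cannot show whether such replicates shared control shoots or other conditions. With a replicate block the counts were 392 for TUN, 457 for AZC and 489 for PEG, and no call of the 3 spots changed. Having 2 replicates per treatment and ratios drawn toward 0 at dim spots limit what could be seen, and a p that missed the threshold does not show that SODB or DHAR3 was level.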
